A study of Mus musculus with 5 samples.

Results

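BRG1 binding was examined at 9 genes of the JAK-STAT pathway: the STAT transcription factor genes Stat2, Stat3, Stat4, Stat5a, Stat5b and Stat6, the Janus kinase genes Jak1 and Jak2, and the feedback inhibitor gene Socs3. These 9 of 21887 protein-coding genes were taken by name, and every BRG1 peak with its summit in the gene body or within 20 kb of it was counted. The cells were macrophages grown from mouse bone marrow, and BRG1 was mapped with an antibody by ChIP-seq, in which the bound DNA is precipitated and sequenced. BRG1 is the motor subunit of SWI/SNF complexes, which slide and evict nucleosomes. The libraries were 1 each of Baf60a knockout cells with oxidised low-density lipoprotein (oxLDL KO), wild-type cells with oxLDL (oxLDL WT), knockout cells without it (KO) and wild-type cells without it (WT). BAF60a is an accessory subunit of SWI/SNF complexes. The age, sex and number of mice, the tissue in which Baf60a was deleted, and the dose and duration of oxLDL were not stated in these sources. Each group was a single library, so there was no replicate check, and no difference between libraries could be set against a spread between replicates.

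In JAK-STAT signalling, a cytokine brings its receptor chains together, the Janus kinases bound to them phosphorylate STAT proteins, and the STATs pair up and move to the nucleus, where they bind DNA. In macrophages, type I interferons act through STAT2, interleukin-6 and interleukin-10 through STAT3, granulocyte-macrophage colony-stimulating factor through STAT5, and interleukin-4 through STAT6. SOCS3 is induced by STAT3 and blocks Janus kinases at the interleukin-6 receptor.

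The lists held 4668 peaks in oxLDL KO, 9907 in oxLDL WT, 139 in KO and 237 in WT, all on chromosomes 1 to 19. Of 12 macrophage marker genes, 6 in oxLDL KO, 11 in oxLDL WT, 1 in KO and 0 in WT had a peak in the gene or within 1 kb of it. Of 29 marker genes of other cell types, the counts were 1, 5, 0 and 0. The share of all protein-coding genes for this 1 kb window is not given here. For the wider 20 kb window it was 21.1% in oxLDL KO, 33.2% in oxLDL WT, 0.553% in KO and 1.19% in WT. The Smarcd1 gene, which encodes BAF60a, had 0 peaks within 20 kb in oxLDL KO and 2 in oxLDL WT (peaks of BRG1 are no check of the deletion itself). The fragment pileup behind each peak was recovered from the deposited values. At the lowest local background, the lowest listed pileup was 12 fragments in oxLDL KO, 12 in oxLDL WT, 15 in KO and 12 in WT, so weaker sites are not in the lists and their values are not known.

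Under oxLDL, BRG1 peaks lay near most of the 9 genes in both genotypes, and without oxLDL near none. In the untreated lists only 0.553% of all protein-coding genes in KO and 1.19% in WT had a peak within 20 kb. Finding none at 9 genes is therefore the background level there, and cannot show a gain with oxLDL particular to these genes. A peak in the gene or within 20 kb was found at 6 of the 9 genes in oxLDL KO, against 21.1% of all protein-coding genes in that list, and at 7 of the 9 in oxLDL WT, against 33.2%. Both lists had a peak at Stat5a, Stat5b, Stat6, Jak1 and Socs3. Stat3 had a peak in oxLDL KO alone, Stat4 and Jak2 had peaks in oxLDL WT alone, and Stat2 had none. The windows of the 9 genes had a median length of 92.8 kb, against 57.2 kb over all protein-coding genes, so a peak in them was easier to meet. Per length, the 9 windows, merged to 0.778 Mb, held 9.0 peaks per Mb in oxLDL KO and 20.6 in oxLDL WT, against 2.86 and 6.09 peaks per Mb over the merged windows of all protein-coding genes.

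**Figure D1:**
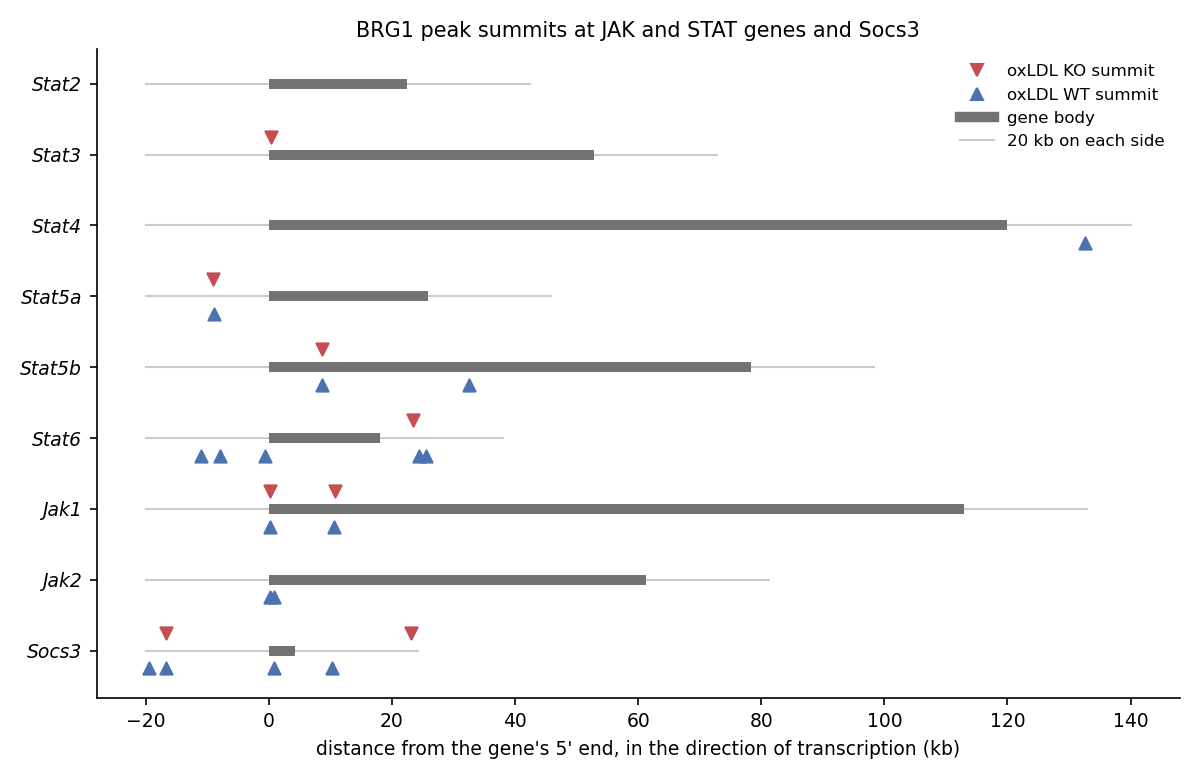
Positions of BRG1 peak summits at the 9 genes, as distance from the 5′ end of each gene in kb along the direction of transcription, with oxLDL KO above the gene and oxLDL WT below it; dark bars are gene bodies and thin lines the 20 kb on each side. The 7 oxLDL KO peaks and 16 oxLDL WT peaks are shown, and the peak shared by the Stat5a and Stat5b windows appears in both rows.

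Each peak counted once, 7 lay near the 9 genes in oxLDL KO and 16 in oxLDL WT. This order was kept at equal limits on −log10 p or −log10 q, but not at equal list length. At a common −log10 p limit of 5.33, 6 peaks were left in oxLDL KO and 10 in oxLDL WT, in whole lists of 4001 and 7919. At a −log10 q of at least 5, 2 and 3 were left. The oxLDL WT list was also cut to its 4668 peaks of highest −log10 p, the length of the oxLDL KO list. That left 6 peaks in oxLDL WT, against 7 in oxLDL KO. The limits were then unlike, with a lowest −log10 p of 6.99 in the cut list and 3.96 in oxLDL KO. The fold enrichment over local background, the authors' own value for each peak, ran from 3.18 to 4.88 (median 4.29) in oxLDL KO and from 2.73 to 5.04 (median 3.42) in oxLDL WT, beside medians of 3.85 and 3.75 over the whole lists. Pileups ran from 14 to 24 fragments in oxLDL KO and from 12 to 28 in oxLDL WT. These were peaks of ordinary height within lists whose highest fold enrichments were 11.31 and 17.64.

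**Figure D2:**
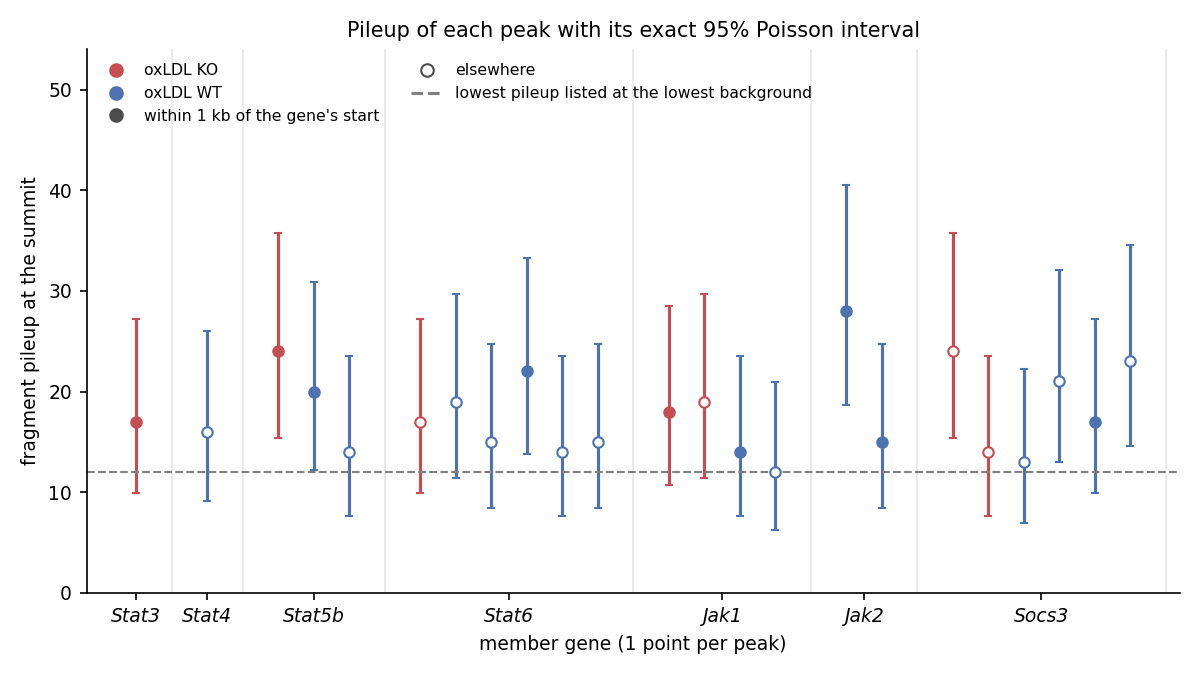
Fragment pileup at the summit of each peak near the 9 genes, by gene, with exact 95% Poisson intervals that cover counting error only; oxLDL KO points stand left of oxLDL WT points within a gene, and filled points lie within 1 kb of an annotated start of that gene. Pileups ran from 14 to 24 fragments in oxLDL KO and from 12 to 28 in oxLDL WT, close to the dashed line at 12, the lowest pileup listed at the lowest background.

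By peaks at any annotated start, inner starts included, the genes divided into those with a peak in both oxLDL libraries, in a single one, and in neither. A summit within 1 kb of an annotated start was found at 3 of the 9 genes in oxLDL KO (Stat3, Stat5b and Jak1), beside 10.2% of the protein-coding genes with a known strand, and at 5 of the 9 in oxLDL WT (Stat5b, Stat6, Jak1, Jak2 and Socs3), beside 16.8%. Stat5b and Jak1 were common to both lists. At Stat5b the peaks lay at an inner start, 8.69 and 8.63 kb from its 5′ end. Counted within 1 kb of either gene end instead, 2 of the 9 genes had a peak in oxLDL KO and 4 in oxLDL WT. Stat2, Stat4 and Stat5a had no start peak in either. In the oxLDL WT list cut to 4668 peaks, 3 start genes were left, Stat5b, Stat6 and Jak2.

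The promoter windows of the 4 genes with a start peak in a single oxLDL list are given here from RefSeq on GRCm38.p6, the assembly of mm10, since they are where the lists differ. Each runs from 250 bases before to 50 bases after an annotated start, 5′ to 3′ on the gene's strand. Capitals mark matches on either strand to TTCNNNGAA (a STAT site), AGGAAG (part of the site of the macrophage factor PU.1) and GGGCGG (an SP1 box). TGANTCA (an AP-1 site) was searched too and had no match in these 4 windows, beside 7.81% of all promoter windows with one.
Stat3, minus strand, chr11:100939491-100939790: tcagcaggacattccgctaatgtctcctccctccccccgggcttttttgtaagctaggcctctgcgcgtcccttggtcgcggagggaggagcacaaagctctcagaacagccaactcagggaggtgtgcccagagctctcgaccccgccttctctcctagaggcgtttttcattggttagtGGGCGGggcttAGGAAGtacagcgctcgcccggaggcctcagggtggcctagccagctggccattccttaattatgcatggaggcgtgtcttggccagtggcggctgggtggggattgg
Stat6, plus strand, chr10:127642736-127643035: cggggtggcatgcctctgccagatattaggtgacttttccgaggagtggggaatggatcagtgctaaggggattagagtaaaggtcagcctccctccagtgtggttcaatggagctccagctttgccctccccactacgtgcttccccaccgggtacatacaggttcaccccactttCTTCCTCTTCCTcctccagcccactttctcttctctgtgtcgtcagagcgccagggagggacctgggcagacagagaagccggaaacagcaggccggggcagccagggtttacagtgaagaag
Jak2, plus strand, chr19:29251553-29251852: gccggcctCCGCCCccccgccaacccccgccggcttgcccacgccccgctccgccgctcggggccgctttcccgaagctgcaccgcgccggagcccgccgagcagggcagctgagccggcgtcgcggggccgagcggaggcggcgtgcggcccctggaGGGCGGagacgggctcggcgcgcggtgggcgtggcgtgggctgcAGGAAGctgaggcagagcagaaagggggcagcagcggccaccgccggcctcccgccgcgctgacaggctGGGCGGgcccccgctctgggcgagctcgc
Socs3, minus strand, chr11:117969317-117969616: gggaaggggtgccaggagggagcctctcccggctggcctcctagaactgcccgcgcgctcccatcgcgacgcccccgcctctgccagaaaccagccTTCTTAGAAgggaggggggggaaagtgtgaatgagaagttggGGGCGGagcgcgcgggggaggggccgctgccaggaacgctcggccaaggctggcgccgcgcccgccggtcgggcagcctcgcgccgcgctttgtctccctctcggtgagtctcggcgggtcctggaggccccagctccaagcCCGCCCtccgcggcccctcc

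Socs3 was the only one of the 12 promoter windows of the 9 genes in the table with a match to TTCNNNGAA. The match, TTCTTAGAA, began 154 bases before the annotated start, at base 97 of the window. The oxLDL WT peak covered bases 1 to 280 of this window with its summit at base 193, so the match lay under the peak. TTCNNNGAA was present in 8.29% of 32817 promoter windows of the same length, so 1 window of 12 with a match is about the background level. At Stat6 the oxLDL WT peak covered bases 1 to 108, and the 2 adjoining AGGAAG matches, 73 and 67 bases before the start and on the minus strand, lay outside it. At Jak2 the stronger oxLDL WT peak covered bases 267 to 300, with a GGGCGG match at base 272. At Stat3 the oxLDL KO peak lay 153 bp from the window, inside the gene. AGGAAG was present in 35.4% of all windows and GGGCGG in 35.6%. A match is only a match of letters and does not show that a factor was bound.

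GC content varied widely among the start windows. It was 60.7% at Stat3, 57.3% at Stat6, 81.0% at Jak2 and 73.3% at Socs3. It was 82.7% at the inner Stat5b start beside its peaks and 64.7% at Jak1, against a median of 52.7% over all windows. Among windows of starts with no summit within 1 kb, it was 59.3% at Stat2 and 50.7% and 46.0% at Stat4. At Stat5a it was 57.7% and 67.7%, and at the innermost Stat5b start 47.3%.

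Jak1 and Jak2, both kinases of many cytokine receptors, differed in which libraries listed them. Jak1 (chromosome 4, 101151974 to 101265282, minus strand) had 2 peaks in oxLDL KO and 2 in oxLDL WT, at the same 2 places. At its start, the oxLDL KO summit at 101265019 had a fold enrichment of 4.29 and a pileup of 18 (interval 10.67 to 28.45), and the oxLDL WT summit at 101265063 had a fold enrichment of 3.15 and a pileup of 14 (7.65 to 23.49). About 10.7 kb into the gene, the oxLDL KO summit at 101254538 had a fold enrichment of 4.53 and a pileup of 19 (11.44 to 29.67), and the oxLDL WT summit at 101254682 had a fold enrichment of 2.73 and a pileup of 12 (6.20 to 20.96). The inner oxLDL WT peak was among the lowest of its list, above 3.95% of it by fold enrichment, with a −log10 q of 1.03. The inner oxLDL KO peak stood above 77.5% of its own list.

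Jak2 (chromosome 19, 29251803 to 29313095, plus strand) had 0 peaks in oxLDL KO, against 2 in oxLDL WT. The first oxLDL WT summit, at 29251956, lay 153 bp inside the gene, with a fold enrichment of 3.96 and a pileup of 28 (interval 18.61 to 40.47), the highest pileup of all peaks near the 9 genes. Its local background was also the highest of these peaks, 6.33 fragments, or 1.68 times the lowest of the list. The other, at 29252684, lay 881 bp inside the gene, with a fold enrichment of 3.35 and a pileup of 15. The nearest oxLDL KO peak was 150 kb from the first summit, so no nearby oxLDL KO peak was missed by the matching.

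Stat3, the STAT of the interleukin-6 and interleukin-10 receptors (chromosome 11, 100886806 to 100939594, minus strand), was the single gene of the 9 with a peak in oxLDL KO alone. Its summit at 100939231 lay 309 bp inside an annotated start, with a fold enrichment of 4.07, a −log10 q of 3.61 and a pileup of 17 (interval 9.90 to 27.22). The peak was 562 bp wide and stood above 58.4% of its list. The nearest oxLDL WT summit lay 69.3 kb away. A pileup under about 12 in oxLDL WT would not have been listed, and the interval of the oxLDL KO pileup reaches below that, so a difference at this site was not detectable at this depth.

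Stat5a and Stat5b, which encode closely related STATs, lie head to head on chromosome 11, at 100859351 to 100885169 on the plus strand and at 100780731 to 100859004 on the minus strand. No peak lay at the ends that face each other. Both libraries had a peak 8.69 kb inside Stat5b, next to an inner annotated start at 100850581, and this peak also fell in the Stat5a window. The oxLDL KO summit at 100850314 had a fold enrichment of 4.85, a −log10 q of 6.87 and a pileup of 24 (interval 15.38 to 35.71). The oxLDL WT summit at 100850370 had a fold enrichment of 3.70, a −log10 q of 3.99 and a pileup of 20 (12.22 to 30.89). They lay 267 and 211 bp inside the inner start. A further oxLDL WT peak, at 100826448, lay deeper in Stat5b, 3878 bp upstream of the innermost annotated start, with a fold enrichment of 3.15 and a −log10 q of 1.91.

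Stat6, which carries the interleukin-4 response (chromosome 10, 127642955 to 127660987, plus strand), had 1 peak in oxLDL KO and 5 in oxLDL WT, the highest count of the 9 genes in the oxLDL WT list, and none of them in the gene body. In oxLDL WT the highest was at the start, its summit at 127642384, 571 bp upstream, with a fold enrichment of 4.83, a −log10 q of 6.52 and a pileup of 22 (interval 13.79 to 33.31). Another 2 oxLDL WT summits lay further upstream, at 127635098 (7.86 kb, fold enrichment 3.36) and 127631930 (11.0 kb, fold enrichment 4.20). The one at 127631930 was closer to the start of Lrp1, 10782 bp away. The neighbour at the 3′ end is Nab2, which encodes a corepressor of EGR factors. The oxLDL KO summit at 127666422, with a fold enrichment of 3.98 and a pileup of 17, lay 281 bp inside the start of Nab2, and 2 oxLDL WT summits, at 127667365 (fold enrichment 2.88) and 127668511 (fold enrichment 3.07), lay 662 and 1808 bp before it. The oxLDL KO summit was 943 bp from the nearer of these and the peaks did not overlap. The nearest oxLDL KO summit to the oxLDL WT start peak of Stat6, at 127618747 and outside the window, lay 23.6 kb away.

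Stat2 and Stat4 had no peak inside the gene or at the start. Stat2, the STAT of the type I interferon receptor (chromosome 10, 128270498 to 128292853), had 0 peaks within 20 kb in all 4 lists, and the nearest summits lay 45.2 kb away in oxLDL KO and 75.5 kb away in oxLDL WT. Stat4, the STAT of the interleukin-12 receptor (chromosome 1, 51987106 to 52107189), had 1 peak, in oxLDL WT, 12.4 kb beyond the 3′ end of the gene, with a fold enrichment of 3.57 and a pileup of 16 (interval 9.15 to 25.98). The nearest oxLDL KO summit was 113 kb away. The interval of the oxLDL WT pileup reaches below 12, the lowest pileup listed in oxLDL KO at its lowest background. A difference at this site was thus not detectable either.

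Socs3 (chromosome 11, 117966079 to 117970336, minus strand) is the smallest of the genes, at 4.26 kb, and had 2 peaks in oxLDL KO and 4 in oxLDL WT. The start peak was in oxLDL WT alone, with its summit at 117969424, 58 bp upstream of an annotated start and 912 bp inside the outermost one. It had a fold enrichment of 3.48, a −log10 q of 2.93 and a pileup of 17 (interval 9.90 to 27.22). A pileup under about 12 in oxLDL KO would not have been listed, and this interval reaches below that. A difference at the Socs3 start was thus not detectable at this depth. The highest peak near Socs3 in oxLDL WT lay 6.04 kb beyond the 3′ end, at 117960034, with a fold enrichment of 5.04, a −log10 q of 7.21 and a pileup of 23 (14.58 to 34.51), above 90.6% of its list. It had no match in oxLDL KO, where the nearest summit, at 117947233, lay 12.8 kb from it. That oxLDL KO peak, 18.8 kb beyond the 3′ end, had a fold enrichment of 3.18 and a −log10 q of 1.74.

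Upstream of Socs3, both libraries shared a peak 16.8 kb from its 5′ end, 3 bp apart at the summits. The oxLDL KO summit at 117987127 had a fold enrichment of 4.88 and a pileup of 24 (interval 15.38 to 35.71), and the oxLDL WT summit at 117987124 had a fold enrichment of 3.90 and a pileup of 21 (13.00 to 32.10). These summits lay 270 and 267 bp from an annotated start of Pgs1, which encodes an enzyme of cardiolipin synthesis. The last oxLDL WT peak, at 117989814 (fold enrichment 2.94), lay inside Pgs1. Just inside the 20 kb limit stood this peak, 19.5 kb from Socs3, and just outside it stood an oxLDL KO summit 20.4 kb away (fold enrichment 3.40) and oxLDL WT summits 21.3 kb and 21.8 kb away (fold enrichments 3.99 and 4.20).

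A good part of the peaks lay closer to a neighbour than to the gene whose window held them. The nearest gene end belonged to 1 of the 9 genes for 5 of 7 peaks in oxLDL KO and for 10 of 16 in oxLDL WT. For the others it belonged to Nab2 and Pgs1 in oxLDL KO, and in oxLDL WT mostly to Lrp1, Nab2 and Pgs1. Counted over the starts of any protein-coding gene with a known strand, 5 of the 7 oxLDL KO peaks and 8 of the 16 oxLDL WT peaks lay within 1 kb of a start, beside 38.3% and 31.2% of the whole lists.

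The same places were found in both genotypes about as often as elsewhere in the genome. Among the 7 peaks in oxLDL KO, 4 had an overlapping peak in oxLDL WT (57.1%, Wilson 95% interval 25.0 to 84.2), beside 59.6% of the whole list. Among the 16 peaks in oxLDL WT, 4 had an overlapping peak in oxLDL KO (25.0%, interval 10.2 to 49.5), beside 27.3%. The 4 shared places were the start and the inner site of Jak1, the inner start of Stat5b and the Pgs1 start upstream of Socs3. Summits lay 44, 144, 56 and 3 bp apart there. At each of them the pileup in oxLDL KO was above that in oxLDL WT (18 and 14, 19 and 12, 24 and 20, 24 and 21 fragments). As multiples of the lowest background of each list, these were 5.26 and 3.72, 5.56 and 3.19, 7.02 and 5.32, and 7.02 and 5.58. The counting intervals of the pileups overlapped at each place. Overlap is no test of a difference, and none was run with 1 library per group, so a difference in height is not shown.

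**Figure D3:**
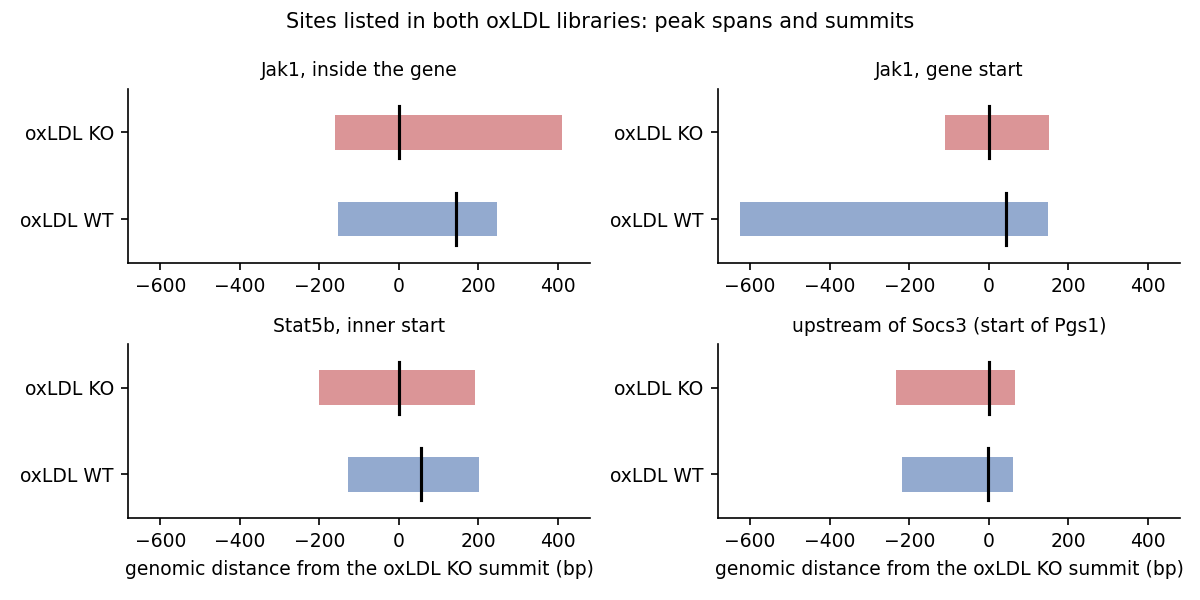
Spans (bars) and summits (black lines) of the peaks at the 4 places listed in both oxLDL libraries, as genomic distance in bp from the oxLDL KO summit, with oxLDL KO above oxLDL WT. The summits lay 144, 44, 56 and 3 bp apart, and at the Jak1 start the oxLDL WT peak was 775 bp wide, against 262 bp in oxLDL KO.

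With a limit of 5 on −log10 q, 2 oxLDL KO peaks and 3 oxLDL WT peaks were left near the 9 genes. The oxLDL KO peaks were at the inner start of Stat5b and the Pgs1 start, and 2 of 2 had an overlapping oxLDL WT peak (Wilson 95% interval 34.2 to 100%), beside 80.5% of all oxLDL KO peaks past that limit. The oxLDL WT peaks were at the starts of Stat6 and Jak2 and beyond the 3′ end of Socs3, and 0 of 3 had an overlapping oxLDL KO peak of any height (interval up to 56.1%), beside 46.4% of all oxLDL WT peaks past it. Both intervals hold the share of the whole list, so these counts are too small to set the 9 genes apart.

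In cells without oxLDL, 0 of the 9 genes had a peak in KO, where 0.553% of all protein-coding genes had one, and 0 of the 9 in WT, where 1.19% had one. At these shares a count of 0 among 9 genes is the background level. The untreated summit nearest to any of the 9 genes was in WT and lay 1862725 bp from Stat5b. The p limit of these short lists was also stricter, with a lowest −log10 p of 5.33 in KO and 5.13 in WT, against 3.96 in oxLDL KO and 3.67 in oxLDL WT. With 5.33 as the limit on −log10 p throughout, 6 peaks near the 9 genes were left in oxLDL KO and 10 in oxLDL WT. The whole lists then held 4001 peaks in oxLDL KO, 7919 in oxLDL WT, 139 in KO and 228 in WT.

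Under oxLDL, other genes of the pathway also had peaks more often than protein-coding genes at large (21.1% in oxLDL KO and 33.2% in oxLDL WT). Of 57 such genes (mostly receptors, inhibitors and targets of STATs), 29 had a peak in the gene or within 20 kb in oxLDL KO (50.9%), 40 in oxLDL WT (70.2%), 1 in KO and 4 in WT. Both oxLDL lists had one at 26 of them, oxLDL KO alone at 3 and oxLDL WT alone at 14, beside 3835, 777 and 3425 of all 21887 protein-coding genes. Receptor genes counted 13 of 25 in oxLDL KO and 17 of 25 in oxLDL WT. Inhibitor genes counted 11 and 13 of 17, and STAT target genes 5 and 8 of 11. Of the other Janus kinase genes, Jak3 had 0 peaks in oxLDL KO and 1 in oxLDL WT, and Tyk2 had 0 in both. Irf9, which encodes a DNA-binding partner of STAT2, had none.

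**Figure D4:**
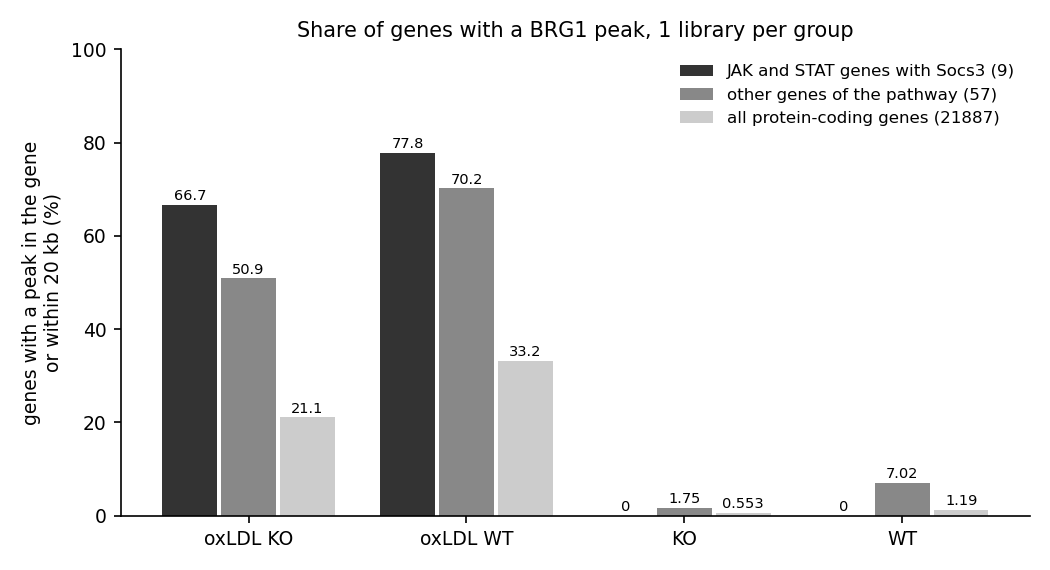
Share of genes with a BRG1 peak in the gene or within 20 kb, in percent, for the 9 genes, 57 other genes of the pathway and all 21887 protein-coding genes, with 1 library per group. In oxLDL KO the shares were 66.7%, 50.9% and 21.1%, in oxLDL WT 77.8%, 70.2% and 33.2%, and in KO and WT they were at most 7.02%.

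Start peaks of pathway genes could be scored for the 37 genes with a known strand. Over all 17492 protein-coding genes with a known strand, 10.2% had one in oxLDL KO and 16.8% in oxLDL WT. Both lists had one at 1264 of these, oxLDL KO alone at 515 and oxLDL WT alone at 1682. Of the 37 pathway genes, 10 had one in oxLDL KO and 17 in oxLDL WT, and 7 in both. Among those 7, taken by the higher of the oxLDL KO and oxLDL WT fold enrichments, the first were Il6ra, which encodes the interleukin-6 receptor (fold enrichment 5.88 in oxLDL KO and 7.77 in oxLDL WT), and Ifngr2, a chain of the interferon-gamma receptor (fold enrichment 6.37 and 6.71). They were followed by the inhibitor genes Pias1 (4.30 and 6.67) and Sh2b3 (6.11 and 6.09) and the interleukin-21 receptor gene Il21r (3.85 and 4.03). In oxLDL KO alone, start peaks were found at Bcl3 (fold enrichment 4.46), the phosphatase gene Ptpn11 (3.62) and Il6st (3.12), which encodes gp130, the shared chain of the interleukin-6 receptor family. Il6st had no oxLDL WT peak within 20 kb either.

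Among the 10 genes with a start peak in oxLDL WT alone, the highest were Csf3r, the granulocyte colony-stimulating factor receptor gene (fold enrichment 5.13), the type I interferon receptor gene Ifnar2 (4.60), the interleukin-15 receptor gene Il15ra (4.41), Ifnar1 (4.06) and the repressor gene Bcl6 (3.99). Csf3r and Il15ra had no oxLDL KO peak within 20 kb, while Ifnar2, Ifnar1 and Bcl6 had 2, 3 and 1 there. The pathway genes with a peak in untreated WT were Ifnar1, Il21r, Il6ra and Sh2b3, and the one in untreated KO was Il21r, so the untreated lists did reach genes of this pathway, though none of the 9.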

How the data were processed

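BRG1 ChIP-seq peak lists of bone marrow-derived macrophages were used, 1 list per library; the input library was not analysed here. Chromatin was cut with an enzymatic kit, per the labels' protocols, so fragment ends depend on nuclease access. MACS3, Bowtie2, Trimmomatic 0.33, bcl2fastq 2.17 and the mm10 build are listed in the submitters' processing notes, with no parameters. For each peak the authors deposited a score (10 times the −log10 q), a fold enrichment (a ratio of pileup to local background), −log10 p and −log10 q values and a summit offset. Read totals are not known from these lists.

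Pileup and background were solved from fold enrichment, (pileup + 1)/(background + 1), and the Poisson tail p (whole within 2% of a step for 99.1% of oxLDL KO and 99.6% of oxLDL WT peaks). Peaks matched when they shared at least 1 bp. Genes came from a RefSeq table on GRCm38.p6. Strand and inner starts came from its promoter table and were known for 17492 of 21887 genes; all 57 pathway symbols matched. The annotated starts of a gene are its 5′ end and the starts of that table. Intervals are exact Poisson or Wilson 95% intervals and cover counting error only. Results on some items are not reported here. The genes and lists were chosen with earlier results of these data known. All 9 genes were named, and pathway genes were named by highest start fold enrichment, up to 5 per class. Python 3.11.15, pandas 2.3.3, SciPy 1.17.1 and statsmodels 0.14.6 were used, and the code was tested on simulated data. Alternatives were stricter q and p limits, smaller windows, other matching rules and, chosen after seeing the data, an oxLDL WT list of the oxLDL KO length.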

Additional observations from a re-analysis of the deposited data

How the results depend on the processing

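No paired analysis was possible because each group has 1 library. Counts in the untreated lists near the 9 genes were 0 under every alternative run. With a limit of 5 on −log10 q, the peaks near the 9 genes numbered 2 in oxLDL KO and 3 in oxLDL WT, the genes with a peak 3 and 3, the matched shares were 100% and 0%, and the pathway genes with a peak numbered 9 in oxLDL KO, 22 in oxLDL WT, 0 in KO and 1 in WT. The whole lists held 922 peaks in oxLDL KO, 2517 in oxLDL WT, 55 in KO and 69 in WT at that limit of 5. In oxLDL WT, 10 peaks were left at a −log10 q of at least 2 and 10 at the common p limit. In the oxLDL WT list cut to the oxLDL KO length, chosen after seeing the data, 6 peaks and 3 start genes were left. With a window of 5 kb, oxLDL KO had 4 peaks at 3 genes and oxLDL WT had 8 peaks. With gene bodies only, oxLDL KO had 4 peaks at 3 genes and oxLDL WT 7 peaks at 4 genes, and pathway genes numbered 18 in oxLDL KO, 0 in KO and 1 in WT. Of 74 alternative values, the other 50 stayed within 1.5 times the count, or within the interval of the share. The cause of these shifts was not tested, beyond the fewer peaks or shorter windows that each alternative leaves. Shares of all protein-coding genes under the alternatives are not given here. The gene counts therefore do not show whether the excess over all genes was kept. Pileups of 12 to 28 fragments limit what can be said of any single peak.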
